A study of Mus musculus with 16 samples.

Results

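The circadian clock genes examined here are Per1, Per2, Per3, Cry1, Cry2, Arntl (also named Bmal1), Clock, Nr1d1, Nr1d2 and Dbp. They are a list of core clock genes and a clock output gene, chosen by name with earlier results of these data known. All 10 were found by symbol among the 45706 genes of the deposited count table, and all 10 were among the 21526 genes that passed the filter on low counts. The RNA came from ear skin of 8 male mice of the inbred strain C57Bl/6J that carried no transgene and received no treatment named in the labels. Each mouse gave a small clip of the first ear at 24 months (23.8 to 24.4 months in the labels, which call it young) and of the second ear at 30 months (29.0 to 30.1 months, called old), so that age and ear cannot be told apart. The 16 libraries form 8 pairs, named here by mouse number (13, 14, 21, 29, 43, 50, 64 and 75), whose biopsies lay 5.0 to 6.3 months apart. The hour at which the mouse ears were clipped is not given in the sources used here.

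The clock runs as a feedback loop in nearly every cell, skin cells included. The proteins of Clock and Arntl form a dimer that binds E-boxes and switches on the Per and Cry genes, Nr1d1, Nr1d2 and Dbp. The PER and CRY proteins then inhibit that dimer, while the REV-ERB receptors encoded by Nr1d1 and Nr1d2 repress Arntl through ROR elements. As a result Arntl mRNA peaks at nearly the opposite time of day from Dbp, Nr1d1, Nr1d2 and Per3 in peripheral tissues, Per2 follows a few hours later, and Cry1 later still. Per1 also answers directly to glucocorticoids and to other acute stimuli.

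The elements through which the loop acts were searched in RefSeq promoter windows on GRCm38.p6, each running from 250 bases before to 50 bases after an annotated start. Of the 10 genes, 9 had a window (13 windows in all), and Per2 had none. Both strands were read for the E-box CACGTG, the D-box TTATGTAA or TTACGTAA, which DBP itself and its relative TEF bind, and the ROR element core TAGGTCA or TGGGTCA. The stretches below are shown because their genes stand at the opposite ends of the relations described further on, or carry the element that names a branch of the loop. The motif is in capitals and each stretch is written 5′ to 3′ on the gene's strand.
Per1: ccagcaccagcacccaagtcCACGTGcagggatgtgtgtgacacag
Cry1: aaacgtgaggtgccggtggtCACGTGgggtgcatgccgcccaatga
Tef: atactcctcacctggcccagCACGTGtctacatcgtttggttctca
Per3: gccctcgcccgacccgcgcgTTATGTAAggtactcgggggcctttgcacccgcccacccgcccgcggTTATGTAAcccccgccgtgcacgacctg
Arntl: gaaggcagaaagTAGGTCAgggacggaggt
Nfil3: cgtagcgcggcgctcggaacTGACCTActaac
The E-box stretch of Per1 lies at chr11:69098763-69098808 on the plus strand, that of Cry1 at chr10:85185089-85185134 on the minus strand and that of Tef at chr15:81811256-81811301 on the plus strand. The Per3 stretch, at chr4:151044796-151044890 on the minus strand, holds 2 D-boxes. The ROR element of Arntl lies just after one of its annotated starts (chr7:113207529-113207558, plus strand), and that of Nfil3 lies before its start (chr13:52981040-52981071, minus strand) and reads TGACCTA, the reverse complement of TAGGTCA. Over all 32817 windows, 7.15% held the E-box, 1.05% a D-box and 6.46% the ROR element core. The windows of Cry2, Clock, Nr1d1, Nr1d2 and Dbp held none of these letters.

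The libraries held between 22967222 and 36162431 reads on genes (median 28877001 at 24 months and 29138399 at 30 months). Values are CPM, the counts scaled to the total of reads on genes with TMM scaling factors. Levels are compared between genes only per length, as RPKM. Summed levels of marker genes are CPM without the TMM factors. The tissue matched its label: all 5 markers of basal and all 5 of differentiated keratinocytes were detected in every library, with summed levels of 8284 to 16793 CPM and 14009 to 20719 CPM. The pieces were mixed tissue. The summed level of the 5 skeletal muscle markers ranged from 362 to 5924 CPM, and in such whole biopsies fewer cells of a type and less RNA per cell cannot be told apart. The library of mouse 29 at 30 months stood apart in several genes given below.

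Per length, the REV-ERB genes were the most abundant members. At 24 months Nr1d1 stood at 58.5 ± 6.23 RPKM and Nr1d2 at 32.2 ± 4.69 RPKM (SD, n = 8 mice, as in all values of this paragraph). Dbp (21.8 ± 7.92), Per1 (19.7 ± 5.20), Cry2 (17.7 ± 2.01) and Per3 (17.1 ± 3.20 RPKM) followed, and neighbours among these lay closer together than their spread. Clock (9.36 ± 1.05) and Cry1 (9.09 ± 1.03 RPKM) were lower and did not differ beyond their spread, and neither did Arntl (7.01 ± 1.36) and Per2 (6.64 ± 1.93 RPKM) at the bottom. At 30 months Nr1d1 (54.7 ± 7.70) and Nr1d2 (30.0 ± 4.19 RPKM) were again at the top and Arntl (7.25 ± 1.32) and Per2 (6.47 ± 2.12 RPKM) at the bottom. Per1 had the third level at that age with 26.6 ± 17.2 RPKM, a mean that mouse 29 governed.

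No clock gene differed between 24 and 30 months past the threshold. The paired comparison blocked on the mouse and used edgeR (quasi-likelihood test), with p adjusted by Benjamini-Hochberg over all genes. It gave 0 of the 10 members and 0 of the 21526 genes with an adjusted p under 0.05 (0.00% of all genes). At an unadjusted p under 0.05 there was 1 member, Dbp, which was lower at 30 months, and of all genes tested 1047 (4.86%) were higher and 1546 (7.18%) lower at that level. DESeq2's Wald test called 0 members and 240 genes (1.11%). The median log2 fold change of the 10 members was -0.06, with 4 positive and 6 negative values, beside a median of 0.01 over all genes tested. The plot of levels by mouse shows that lines cross in every panel.

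**Figure D1:**
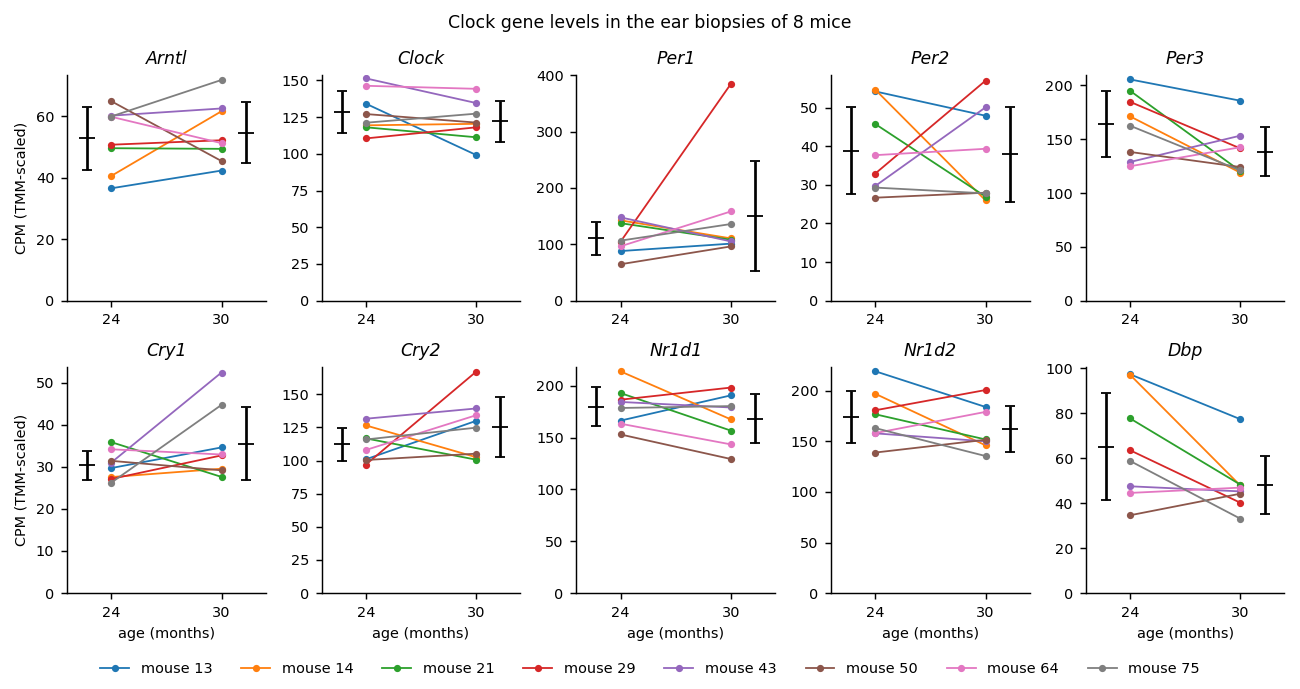
TMM-scaled CPM (y axis, from 0) of the 10 clock genes in the first (24 months) and second (30 months) ear biopsy of each mouse (x axis). Coloured lines join the samples of one mouse, and black marks give the mean and SD of 8 mice. Dbp was lower at 30 months in 6 of 8 mice, and the line that leaves the Per1 panel upward is mouse 29.

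Dbp encodes a bZIP factor that carries the rhythm to output genes through D-boxes, and on the log2 scale it was the member with the largest spread at 24 months. It lies on chromosome 7 (chr7:45705088-45710203, plus strand, gene ENSMUSG00000059824). At 24 months its level was 97.4, 97.2, 77.8, 63.6, 47.5, 34.6, 44.6 and 58.8 CPM in mice 13, 14, 21, 29, 43, 50, 64 and 75. Mice 13 and 14 were thus the highest and mouse 50 the lowest, a range of 2.81-fold. At 30 months the same mice had 77.4, 47.9, 48.3, 40.2, 45.3, 44.2, 46.9 and 33.1 CPM. Mouse 13 was again the highest, the other mice lay between 33.1 and 48.3 CPM, and the ages overlapped. The mean was 65.2 ± 23.7 CPM at 24 months and 47.9 ± 12.9 CPM at 30 months (SD, n = 8). The log2 fold change was -0.40 with a standard error of 0.15 (adjusted p = 0.342 in edgeR). Dbp was lower at 30 months in 6 mice and higher in mice 50 and 64. These values rest on 932 to 2971 reads per library. Exons of Dbp overlap those of Sphk2 on the other strand, and whether the counting used strand is not stated, so that reads of the overlap are uncertain. Sphk2 stood at 61.1 ± 6.95 and 56.3 ± 9.01 CPM, with a log2 fold change of -0.13 (standard error 0.086).

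Arntl encodes the partner of CLOCK in the activating dimer (chr7:113207465-113314126, plus strand). At 24 months it stood at 36.5, 40.5, 49.6, 50.7, 60.1, 64.9, 59.8 and 59.9 CPM in mice 13, 14, 21, 29, 43, 50, 64 and 75. The order was nearly the reverse of that of Dbp, with mouse 13 lowest and mouse 50 highest. At 30 months the values were 42.3, 61.6, 49.4, 52.2, 62.5, 45.4, 51.2 and 71.8 CPM. Mouse 13 was again the lowest and mouse 75 was now the highest. The means were 52.7 ± 10.2 and 54.5 ± 9.91 CPM (SD, n = 8), and the log2 fold change was 0.05 ± 0.11 (standard error, adjusted p = 0.855 in edgeR), higher in 5 of 8 mice. Its exons overlap Gm45355 on the other strand, a gene below the filter. Clock, which encodes the other subunit of the dimer, ranged from 110 to 151 CPM (median 124) at 24 months and from 99.2 to 144 CPM (median 121) at 30 months, with a log2 fold change of -0.07 (standard error 0.065).

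Among the Per genes, which encode the inhibitors that give the loop its delay, Per3 ranged from 125 to 206 CPM (median 167) at 24 months and from 119 to 186 CPM (median 133) at 30 months. It was lower at 30 months in 6 of 8 mice. Its log2 fold change was -0.24 ± 0.11 (standard error, adjusted p = 0.416 in edgeR). Per2 had 26.7 to 54.7 CPM (median 35.3) at 24 months and 26.0 to 57.0 CPM (median 33.7) at 30 months. It was higher in 4 mice and lower in 4, and its log2 fold change was -0.05 (standard error 0.20). Mice 13 and 14 were the highest for Per2 at 24 months and mouse 29 at 30 months, while mouse 14 moved from the highest value to the lowest.

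Per1 ranged from 64.6 to 148 CPM (median 105) at 24 months. At 30 months 7 mice lay between 96.2 and 158 CPM, whereas mouse 29 had 385 CPM, from 105 CPM at 24 months. Its log2 fold change, 0.30 ± 0.23 (standard error, adjusted p = 0.614 in edgeR), depended on this library and was 0.10 (standard error 0.16) without mouse 29. It was higher in 5 of 8 mice.

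The Cry genes encode the stronger repressors of the dimer. Cry1 had 26.2 to 35.9 CPM (median 30.3) at 24 months and 27.6 to 52.4 CPM (median 32.8) at 30 months, where mice 43 and 75 were above the rest. Its log2 fold change was 0.20 (standard error 0.13), higher in 5 of 8 mice. Cry2 had 96.9 to 132 CPM (median 112) and 101 to 167 CPM (median 127), with mouse 29 the highest at 30 months and a log2 fold change of 0.15 (standard error 0.11), higher in 6 of 8 mice. Without mouse 29 it was 0.06 (standard error 0.087). For the REV-ERB genes the fold changes were smaller. Nr1d1 had 153 to 214 CPM (median 182) and 129 to 198 CPM (median 173), a log2 fold change of -0.10 (standard error 0.072). Nr1d2 had 139 to 219 CPM (median 170) and 135 to 201 CPM (median 152), a log2 fold change of -0.10 (standard error 0.080). Each was lower at 30 months in 5 of 8 mice. Exons of Nr1d1 overlap Thra (115 ± 8.21 CPM at 24 months) and those of Cry2 overlap D930015M05Rik (2.90 ± 0.553 CPM), both on the other strand, with the same limit as for Dbp.

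Dbp, Per1, Per2, Arntl and Per3 varied more between mice at 24 months than most genes. The SD of log2 CPM over the 8 mice was 0.54 for Dbp, 0.41 for Per2 and for Per1, 0.30 for Arntl and 0.28 for Per3, whereas it was 0.15 to 0.21 for Nr1d1, Clock, Cry1, Cry2 and Nr1d2. Among the 500 genes nearest in level, 99.6% had a smaller SD than Dbp, 97.4% than Per1, 97.0% than Per2, 95.6% than Arntl and 94.2% than Per3. At 30 months the SD of Dbp was 0.34 and that of Arntl 0.26, and 91.0% and 74.0% of the genes of like level had a smaller one. For Per1 it was 0.66, with mouse 29 in it, and for Per2 0.47 (97.8% and 94.2%), larger than at 24 months, as was that of Cry1 at 0.32. That of Per3 was 0.22. The median SD over the 10 members was 0.24 at 24 months and 0.26 at 30 months, beside 0.18 and 0.27 over all genes tested. These are descriptions without a test.

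The members were related to one another over the mice at 24 months. For each pair, Pearson's r of log2 CPM over the 8 mice was tested by exact permutation of the mice (two-sided, every order) and adjusted over the 45 pairs. At 24 months 7 of the 45 pairs had an adjusted p under 0.05, of which 4 were positive and 3 negative, and 4 passed with Spearman's rho. Apart from Per1 with Nr1d1, the pairs that passed with r all lay among Dbp, Arntl, Nr1d2 and Per2. How many pairs drawn from all genes would pass was not counted, here or for the further genes below. At 30 months and for the within-mouse change 0 pairs passed with r or with rho, and 5 and 6 pairs had an unadjusted p under 0.05 in the exact test.

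At 24 months Dbp and Arntl had r = -0.93 and rho = -0.93 (exact permutation p = 0.000174 and 0.00223, adjusted 0.00335 and 0.0251). Without mice 13 and 50, which lay farthest from the median of Dbp, r was again -0.93. The adjusted p was above 0.05 without mouse 43 (0.0513, exact permutation test) and without mouse 50 (0.0595), with r = -0.93 and -0.94. Nr1d2 was the third gene of this group. It had r = -0.97 with Arntl and 0.95 with Dbp (adjusted p = 0.00335 for each in the exact permutation test, rho -0.95 and 0.95), and these were -0.93 and 0.94 without the 2 mice farthest from the median. Mice 13 and 14 thus combined high Dbp, high Nr1d2 and low Arntl, and mouse 50 the reverse.

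Per2 stood with Dbp, at r = 0.87 with Dbp, 0.86 with Nr1d2 and -0.91 with Arntl (adjusted p = 0.0458, 0.0413 and 0.0285, exact permutation test). Without the 2 mice farthest from the median these were 0.77, 0.64 and -0.74, so that they rest partly on mice 13 and 14 or 13 and 50. With rho only the pair of Per2 with Arntl passed (adjusted p = 0.0251, beside 0.109 for each of the others, exact permutation test). Per3 had r = 0.83 with Dbp and -0.77 with Arntl, and neither passed the adjustment (0.0761 and 0.120, exact permutation test). Nr1d1, whose transcript is known to peak close to those of Nr1d2 and Dbp, had r = 0.65 with Dbp (exact permutation p = 0.0824, adjusted 0.285). Its closest member over all 8 mice was Per1, with r = 0.87 (adjusted p = 0.0413, exact permutation test) and 0.91 without mice 43 and 50. With rho, at 0.79, this pair did not pass (adjusted p = 0.126, exact permutation test). Without mouse 13, Nr1d1 had r = 0.94 with Dbp, 0.93 with Nr1d2 and 0.86 with Per1. Cry1 had r = -0.26 with Dbp and 0.20 with Arntl, and Clock -0.40 and 0.26, and none of these 4 passed.

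**Figure D2:**
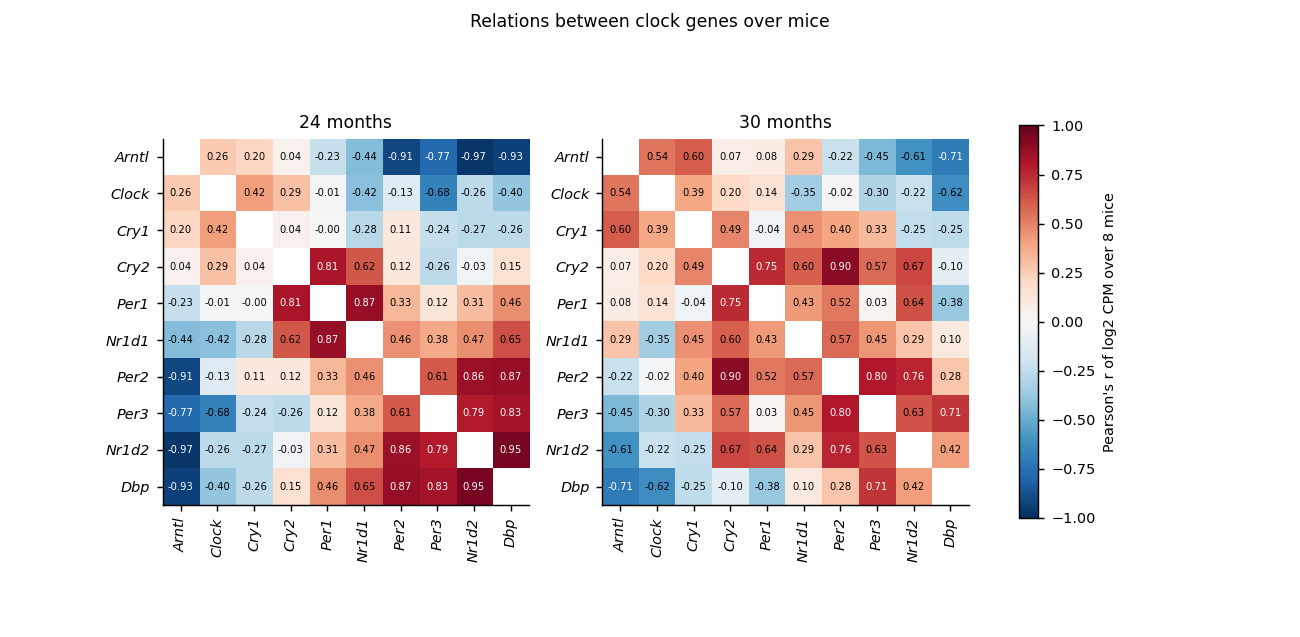
Pearson's r of log2 CPM over 8 mice for each of the 45 pairs of clock genes, at 24 months (left) and 30 months (right), with red for positive and blue for negative values and r printed in each cell. At 24 months Arntl has r below -0.7 with Per2, Per3, Nr1d2 and Dbp, which have positive r with one another, and at 30 months fewer cells are as dark.

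Tef, Ciart, Nfil3 and Npas2 were related to Dbp or Arntl at 24 months. Of 54 relations of Dbp and Arntl with 20 other clock genes and 7 clock-controlled genes, 6 passed the adjustment at 24 months, 0 at 30 months and 0 for the within-mouse change. Tef, which encodes a D-box factor related to DBP, had r = 0.97 with Dbp and -0.92 with Arntl (adjusted p = 0.00804 and 0.0138, exact permutation test). Ciart, a repressor of the dimer, had 0.95 and -0.88 (adjusted p = 0.0138 and 0.0243, exact permutation test). Nfil3, a D-box repressor under ROR control like Arntl, had r = 0.90 with Arntl, and Npas2, which can replace CLOCK in the dimer, had 0.88 (adjusted p = 0.0243 for each, exact permutation test). With Dbp the values were -0.86 for Nfil3 and -0.79 for Npas2, and these did not pass (adjusted p = 0.0733 and 0.103, exact permutation test). Hlf, the relative of DBP and TEF, had r = -0.16 with Dbp and 0.38 with Arntl, and neither passed. Tef and Nfil3 carry the E-box and the ROR element printed above, on opposite sides of this relation, and Ciart, on the side of Dbp, also had E-boxes. The letters did not sort all genes by side. Npas2, on the side of Arntl, had no ROR element core in its window, and Dbp and Nr1d2 had no E-box. Cry1 carries an E-box and had r = -0.26 with Dbp. This is a description of the letters only.

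At 30 months the relation of Dbp with Arntl was r = -0.71 and rho = -0.60 (exact permutation p = 0.0415 and 0.132, adjusted 0.373 and 0.572). Without mice 13 and 75 r was 0.19, so that it rested on those mice. Dbp and Nr1d2 had r = 0.42, which was 0.80 without mouse 29 and 0.17 without mouse 13. Dbp and Per2 had 0.28, which was 0.53 and -0.05 without the same mice. Dbp and Per3 had r = 0.71 and rho = 0.12 (exact permutation p = 0.0633 and 0.793, adjusted 0.408 and 0.870), and r was 0.11 without mouse 13. The relations of Dbp at this age thus turned on single mice. The pairs with the highest r at this age were Per2 with Cry2 at 0.90 and Per2 with Per3 at 0.80 (exact permutation p = 0.00184 and 0.0140, adjusted 0.0826 and 0.315). The difference in r between the ages was not tested. For the within-mouse change, Dbp and Arntl had r = -0.85 and rho = -0.79 (exact permutation p = 0.00461 and 0.0279, adjusted 0.127 and 0.331), and r = -0.59 without mice 50 and 64. The change shares its values with both ages and is no separate evidence.

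**Figure D3:**
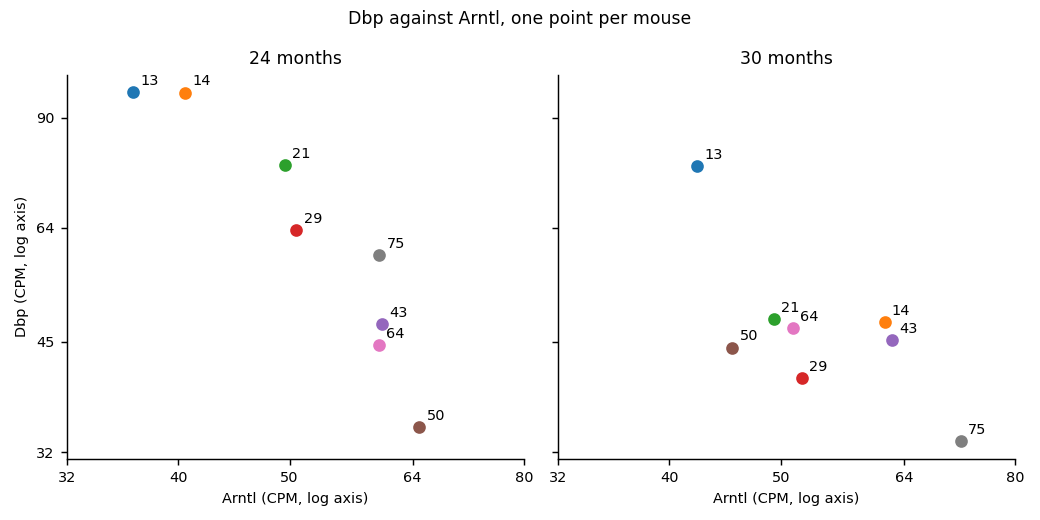
Dbp (y axis) against Arntl (x axis) in TMM-scaled CPM on log axes, one point per mouse with its number, at 24 months (left) and 30 months (right). At 24 months the points fall from mouse 13 at the upper left to mouse 50 at the lower right (r = -0.93). At 30 months 6 mice lie between 40.2 and 48.3 CPM for Dbp, with mouse 13 above and mouse 75 below.

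In a running loop the log2 ratio of Dbp to Arntl moves with phase, and it is set here beside each mouse. Whether it marks phase in these libraries was not tested. At 24 months it was 1.41, 1.26, 0.65, 0.33, -0.34, -0.91, -0.42 and -0.03 in mice 13, 14, 21, 29, 43, 50, 64 and 75. The ratio uses CPM and not levels per length, and the exons of Dbp span 2993 bases beside 7523 for Arntl. A value of 0 thus does not mark equal levels, and only differences between libraries are read. The ratio was above 0 in 4 mice and below 0 in 4. At 30 months it was 0.87, -0.36, -0.03, -0.37, -0.47, -0.04, -0.13 and -1.11 in the same mice, and above 0 only in mouse 13. The SD over mice was 0.82 at 24 months and 0.56 at 30 months. From 24 to 30 months the ratio was lower in 6 mice and higher in mice 50 and 64, by -1.62 in mouse 14 at the lowest and 0.87 in mouse 50 at the highest. The difference in SD between the ages was not tested. Not every member followed the ratio at 24 months. Mouse 13, with the highest ratio, had Nr1d1 at 166 CPM, below the median of 182 CPM. Without mouse 13, Nr1d1 had r = -0.89 with Arntl and 0.94 with Dbp. Without mouse 14 these were -0.17 and 0.49, so that the relations of Nr1d1 turned on single mice. Over all 8 mice, Nr1d1 had r = -0.44 with Arntl, Per1 -0.23 and Cry1 0.20, none past the adjustment (0.653, 0.774 and 0.800, exact permutation test). With Dbp the same genes had r = 0.65, 0.46 and -0.26, and none passed either (0.285, 0.631 and 0.750, exact permutation test). No r with the ratio itself was computed. Whether the hour of biopsy differed between mice or between ages was not tested, since no hour is given.

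No member's level at 24 months was related past the threshold to its level at 30 months over the mice. The largest r between the ages was 0.48 for Dbp (exact permutation p = 0.231, adjusted 0.685 over 10 members), followed by 0.45 for Clock and Nr1d1.

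Tissue make-up and depth were set against Dbp, Arntl and Per1 in the same way. Of 45 relations with 12 lists of cell type markers and 3 measures of the libraries at each age, 0 passed the adjustment at 24 months, 0 at 30 months and 0 for the change. The relation with the smallest p at 24 months was that of Dbp with the number of reads on genes, at r = -0.74 (exact permutation p = 0.0336, adjusted 0.639). At 30 months it was that of Arntl with the summed markers of differentiated keratinocytes, at r = 0.87 (exact permutation p = 0.00645, adjusted 0.290), and these markers ranged from 14009 to 20163 CPM at that age. For the change, Per1 had r = -0.76 and rho = -0.76 with the same markers (exact permutation p = 0.0245 and 0.0368, adjusted 0.557 and 0.551). With the summed fat cell markers its change had r = 0.76 and rho = 0.93 (exact permutation p = 0.0382 and 0.00223, adjusted 0.557 and 0.10). The part of these in the changes of Per1, and that of depth and keratinocyte markers in the relation of Dbp with Arntl, was not tested.

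By closeness of pattern over all genes, Arntl was the gene most opposite to Dbp. Over the 16 libraries, each centred on its age mean, Arntl had r = -0.84 with Dbp, the lowest of 21525 genes. Per3 ranked 6 from the top with 0.79, Nr1d2 ranked 29 with 0.74, Tef 50 with 0.71 and Nfil3 was near the bottom with -0.71. Not all clock genes lay at the ends. Per2 ranked 258 with 0.60, Nr1d1 2034 with 0.36, Per1 9804 with 0.03 and Cry2 10026 with 0.02. Hlf ranked 12445 with -0.04, Cry1 17778 with -0.22 and Clock 20963 with -0.47. The 8 genes with the highest r to Dbp were Gm29666, Gm15344, Gm17597, Rbm12b2, Gm30238, Per3, Rsad1 and Nemp1 (0.78 to 0.82), and the 8 with the lowest were Arntl, ENSMUSG00000102183, Tnk2os, Pde12, Ddx28, Shb, Dyrk2 and 1700109G14Rik (-0.84 to -0.79). For Arntl the highest were Mfsd5, Rcan1, 2310022B05Rik, Tprn, Map2k4, Klf4, Ctnnbip1 and Nectin1 (0.81 to 0.86), and the lowest Gm30238, Gm20045, Gm17597, Gm42979, Wdr38, Gm17705, Tnfsf9 and Dbp (-0.91 to -0.84). The points share libraries and depth, several of these genes have few reads, and no p is given.

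Of the 20 other clock genes, all passed the filter and 0 were called. At an unadjusted p under 0.05 in edgeR 2 were higher at 30 months and 2 lower, beside the 4.86% and 7.18% of all genes. The higher ones were Bhlhe40, a repressor of the dimer, with a log2 fold change of 0.28 (standard error 0.092), and Arntl2, a relative of Arntl, with 0.25 (standard error 0.075), and 7 of 8 mice were higher for each. The lower ones were Rora, an activator of Arntl, with -0.25 (standard error 0.092), and Hlf with -0.25 (standard error 0.098), each lower in 6 of 8 mice. Their adjusted p ran from 0.282 to 0.359 in edgeR. Nfil3 had a log2 fold change of 0.50 (standard error 0.24), which was 0.27 without mouse 29, and the log2 fold changes of Npas2 (0.16), Tef (-0.09), Ciart (0.04) and Bhlhe41 (0.01) were close to or below their standard errors. Npas2 was at -0.02 without mouse 29. Of the 7 clock-controlled genes 0 were called. Their log2 fold changes were positive for 5 and negative for 2, with a median of 0.07. At an unadjusted p under 0.05 in edgeR 1 was higher and 1 lower. Wee1, a kinase that holds back entry into mitosis and is driven through E-boxes, was lower at 30 months in 8 of 8 mice (18.2 ± 3.29 against 13.1 ± 2.77 CPM, SD, n = 8, log2 fold change -0.48, standard error 0.11, adjusted p = 0.222 in edgeR), as were 1.69% of all genes tested.

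**Figure D4:**
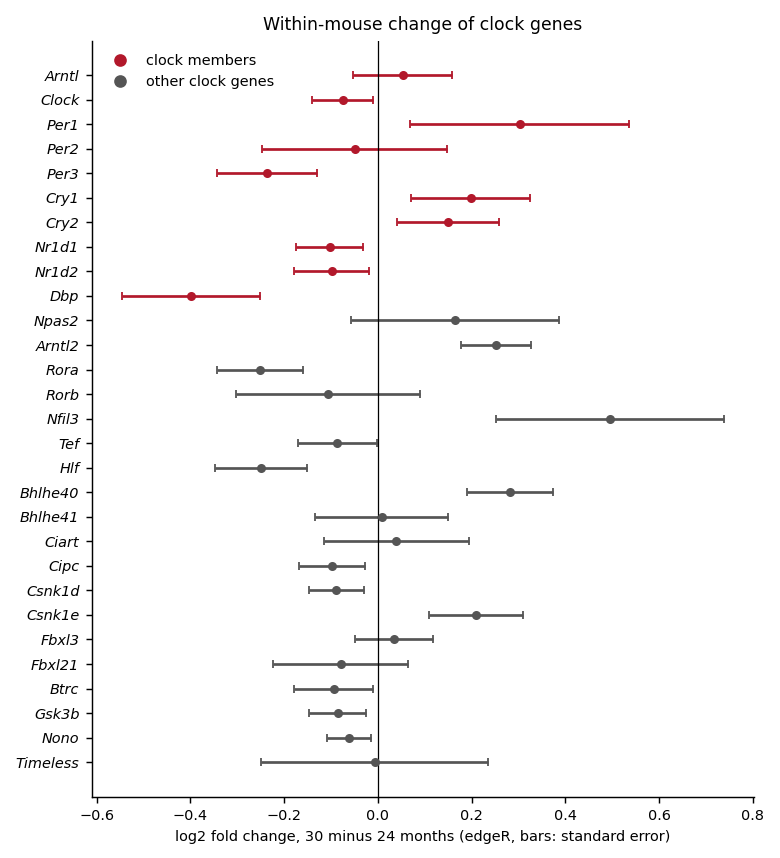
Log2 fold change from 24 to 30 months within mice (x axis) with its standard error from edgeR, for the 10 clock genes (red) and other clock genes (grey). Dbp is the lowest at -0.40 and Nfil3 the highest at 0.50, and none passed the adjusted threshold.

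The Per1 value of mouse 29 at 30 months came together with other clock and glucocorticoid-responsive genes in that library. Mouse 29 was the highest of the 8 mice at 30 months for 5 of the 10 members (Per1, Per2, Cry2, Nr1d1 and Nr1d2), for 10 of the 20 other clock genes, for 7 of 7 clock-controlled genes and for 6 of 7 glucocorticoid-responsive genes. At 24 months it was the highest for 0, 3, 1 and 2 of them. The share of all tested genes that were highest in mouse 29 was not counted at either age. These counts therefore cannot be read as a trait of clock genes. Fkbp5, which encodes a chaperone of the glucocorticoid receptor, stood at 717 CPM in mouse 29 beside a median of 79.9 CPM over the 8 mice. Tsc22d3, the gene of the glucocorticoid-induced leucine zipper protein, stood at 993 CPM beside a median of 156 CPM, and Klf9, a transcription factor induced by the same receptor, at 185 beside 45.2 CPM. Zbtb16 stood at 172 CPM beside a median of 18.6 CPM. In the same library Dbp was at 40.2 CPM and Arntl at 52.2 CPM, within the range of the other mice in both cases. Immediate-early genes were not the highest there either. All 7 of that list were highest at 30 months in mouse 14 (Fos at 289 CPM beside a median of 20.2 CPM), whose Per1 was 111 CPM. The make-up of the mouse 29 library differed as well. It had the highest summed fat cell markers of the 8 mice at 30 months (287 CPM beside a median of 95.9 CPM) and the lowest summed markers of T cells (50.8 beside 130 CPM), fibroblasts (2258 beside 3480 CPM), cartilage (85.3 beside 108 CPM) and B and plasma cells (0.569 beside 0.883 CPM). Of the 16 libraries it had the lowest share of reads on mitochondrial genes (2.17%) and the highest share of reads outside single genes (21.1%). The part of these in its Per1 value was not tested.

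Over mice, Per1 had r = 0.98 with Tsc22d3 and 0.99 with Errfi1 at 30 months (adjusted p = 0.0174 for each over 37 relations, exact permutation test, rho = 0.83 for each). Without mice 29 and 64 these were 0.74 and 0.81 (exact permutation p = 0.0681 and 0.0597), so that the calls rest on those mice, and rho did not pass the adjustment (0.207 for each, exact permutation test). Without mouse 29 alone r was 0.88 for Tsc22d3 and 0.91 for Errfi1. Fkbp5 and Klf9 had r = 0.93 and 0.93, which were 0.32 and 0.14 without mouse 29. Sgk1, Zbtb16, Mt2 and Dusp1 had r = 0.91, 0.89, 0.70 and 0.07, and none of these passed. Without mouse 29 they were 0.65, -0.54, 0.59 and 0.30. At 24 months 0 of the 37 relations passed, with r = 0.71 for Tsc22d3 and 0.72 for Klf9 (adjusted p = 0.420 for each, exact permutation test). For the within-mouse change, Per1 had r = 0.95 and rho = 0.95 with Tsc22d3 (adjusted p = 0.0312 and 0.0422, exact permutation test) and r = 0.85 without mouse 29. Without mice 29 and 43 it was 0.81 (exact permutation p = 0.0542). Errfi1 and Klf9 also passed for the change, with r = 0.91 and 0.92 (adjusted p = 0.0376 for each, exact permutation test). Each was 0.74 without mouse 29, and rho did not pass (adjusted p = 0.269 and 0.340, exact permutation test).

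**Figure D5:**
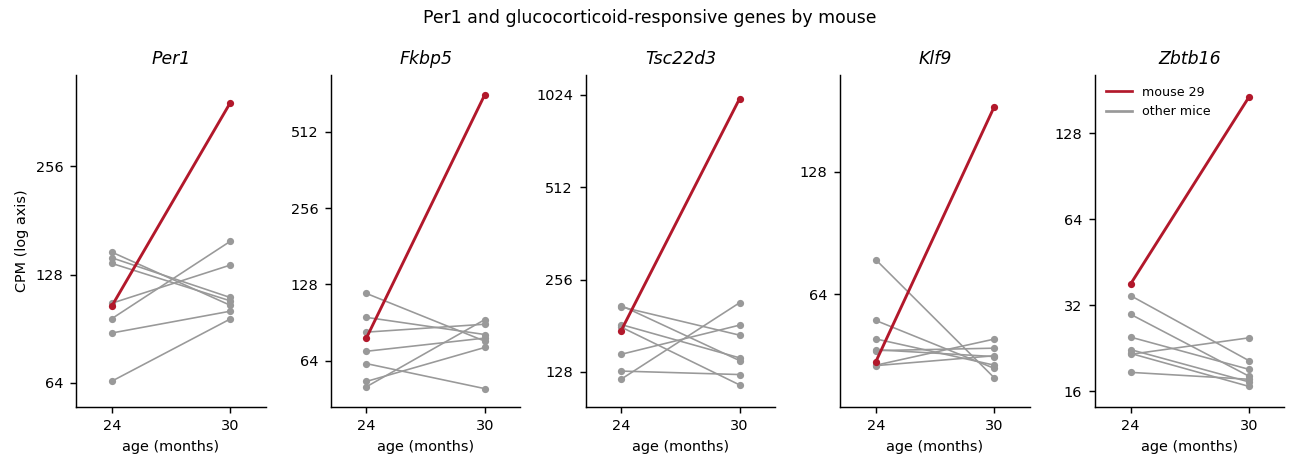
TMM-scaled CPM on a log axis (y axis) of Per1 and of 4 genes known to respond to glucocorticoids in the biopsies at 24 and 30 months (x axis), one line per mouse, with mouse 29 in red. In each panel mouse 29 lies within or near the other mice at 24 months and above all of them at 30 months, with 385 CPM for Per1 and 717 CPM for Fkbp5.

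The lists of stimulus-responsive genes were read in the same fit. Of the 7 glucocorticoid-responsive genes (Fkbp5, Tsc22d3, Sgk1, Zbtb16, Dusp1, Errfi1 and Mt2) 0 were called, and 3 were higher at an unadjusted p under 0.05 in edgeR, beside 4.86% of all genes tested. Of the 7 immediate-early genes (Fos, Fosb, Egr1, Junb, Nr4a1, Ier2 and Atf3) 0 were called and 6 were higher at that level, with a median log2 fold change of 0.54. Of the 7 temperature-responsive genes (Cirbp, Rbm3, Hspa8, Hsp90aa1, Hspa1a, Hspa1b and Dnajb1) 0 were called and 1, Cirbp, was higher at that level. In the same fit 4 of 5 endothelial markers were higher (median log2 fold change 0.57) and 4 of 5 cartilage markers lower (median -0.61) at that level, and 0 were called. The part of tissue make-up in these lists was not tested. Dbp had no relation past the adjustment with any of these lists at either age.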

How the data were processed

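RNA-seq counts of ear biopsies from 8 mice, each sampled at 24 and at 30 months, were analysed. The authors aligned single-end reads to GRCm38 (mm10) with TopHat and counted them per gene, and the values they deposited are raw counts, not normalized. The submitters' processing notes name CASAVA 1.8.4, TopHat2 2.1.0 and HTSeq 0.6.1p1. Reads outside genes or on several genes, 18.7% to 21.1% of a library's total, were left out of library sizes. GENCODE M21 supplied symbols, positions and exon lengths for 45143 of the 45706 identifiers. Promoter windows came from RefSeq on GRCm38.p6.

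The count model was edgeR 4.0.16 in R 4.3.3 (filterByExpr, TMM, quasi-likelihood test), blocked on the mouse because the sample sheet gives both libraries of a pair the same animal number. After subtracting each age's mean, the median correlation of libraries was -0.023 within mice and -0.005 between them. No label gives a batch. P-values were adjusted by Benjamini-Hochberg and read at 0.05. Relations between genes used log2 CPM with a prior count of 2 and exact permutation of the mice in Python 3.11.15 with scipy 1.17.1. The smallest p that these permutations can give is 2.5e-05. Samples within a group are separate animals. On counts simulated for 21268 genes with 200 changed 2-fold, edgeR called 165 of those and 5 unchanged genes. Each simulated gene had the spread usual for its level and no difference between mice. Genes more variable than that, such as Dbp and Per1, were not simulated.

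The members and lists were chosen with earlier results of these data known. The genes named are the 10 members, the lists of other clock, clock-controlled, glucocorticoid-responsive, immediate-early and temperature-responsive genes and, for Dbp and Arntl, the 8 genes with the highest and the 8 with the lowest r. The values of 1 listed gene are not reported here. Alternatives were DESeq2 size factors, DESeq2 1.42.0 (Wald test), no filter on low counts, no mouse block, age in months, another prior count, Spearman's rho and each mouse left out in turn.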

Additional observations from a re-analysis of the deposited data

Results flagged for a closer look

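For the 10 clock genes, 30 groups of 8 values were examined (each age and the change within mice), and 2 held a mouse whose gap to the nearest of the others was large for the range of the group, where about 1.5 are expected by chance. Among 21 groups of 7 further genes (Npas2, Nfil3, Tef, Ciart, Fkbp5, Tsc22d3 and Klf9), which were picked after values were seen and share libraries, there were 9, and this number is not set against chance. Of these 11, 9 were in mouse 29: at 30 months Per1 with 385 CPM, Npas2 with 36.3 CPM, Nfil3 with 27.9 CPM, Fkbp5 with 717 CPM, Tsc22d3 with 993 CPM and Klf9 with 185 CPM, and as log2 changes from 24 months 3.19 for Fkbp5, 2.51 for Tsc22d3 and 2.07 for Klf9. In mouse 13 Dbp stood at 77.4 CPM at 30 months, above the other 7 mice. In mouse 43 Klf9 stood at 77.9 CPM at 24 months.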

How the results depend on the processing

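The number of genes called between the ages was 0 with every setting of edgeR that kept the mouse block, 240 with DESeq2's Wald test and 3 with no replicate block, and no clock gene was called under any setting, with 0.194 as the smallest adjusted p. Of 130 values of the members' log2 fold changes under the alternatives, 127 kept their direction. With each mouse left out in turn, Per2 ranged from -0.167 to 0.095 (above 0 without mouse 14 or mouse 21) and Arntl from -0.025 to 0.135 (below 0 without mouse 14), Per1 from 0.10 (without mouse 29) to 0.43, and Dbp from -0.50 to -0.31. Other members moved by over 1.5 times: Cry2 to 0.06 without mouse 29, Clock to -0.01 without mouse 13, Cry1 to 0.12 without mouse 43 or mouse 75, Nr1d1 to -0.07 without mouse 14 or mouse 21, and Nr1d2 to -0.05 without mouse 14 and -0.07 without mouse 13. The r of Dbp with Arntl at 24 months ranged from -0.96 to -0.91 and lost its call without mouse 43 or mouse 50. The r of Dbp with Nr1d1 ranged from 0.44 to 0.94 at 24 months (past the threshold without mouse 13, adjusted p = 0.0268 in the exact permutation test), from -0.46 to 0.28 at 30 months, where rho was -0.14, and from -0.35 to 0.25 for the change. The causes were not tested. The simulated test covered only 2-fold changes at the spread usual for a gene's level, and smaller changes or larger spreads were not simulated.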
